A study of Mus musculus with 6 samples.

Results

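The transcripts described here encode the enzymes, transporters and regulators that carry glucose to lactate or into the mitochondrion as acetyl-CoA. They are 34 genes of the 24935 in the deposited expression table, chosen by name along the pathway: 1 glucose transporter, the hexokinase to pyruvate kinase enzymes with the regulators of phosphofructokinase, both lactate dehydrogenase subunits, 3 monocarboxylate transporters, both subunits of the mitochondrial pyruvate carrier, 4 genes of the pyruvate dehydrogenase complex and its 4 kinases. RNA came from the left hippocampus of C57BL/6 mice at postnatal day 14 (P14). Newborn pups of both sexes had been kept with their dams in 85% O2 (Hyperoxia, n = 3) or in ambient room air (Air, n = 3) from P2 to P14, and the labels name no other genotype or agent. The name of a deposited comparison table that was not used here refers to oil in both groups, and whether the mice received it is not stated. Each library came from 1 mouse, so the p-values measure the spread between single animals, and the labels do not give the sex or litter of each animal. The comparison asks how prolonged neonatal oxygen exposure left the hippocampal transcripts of glucose and pyruvate metabolism.

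In glycolysis, a glucose molecule is phosphorylated, split into triose phosphates and oxidized to pyruvate, which yields ATP in the cytosol without use of oxygen. Pyruvate is then either reduced to lactate by lactate dehydrogenase or carried into the mitochondrion, where the pyruvate dehydrogenase complex turns it into acetyl-CoA unless its kinases have switched the complex off. In the brain, glucose is the main fuel, lactate moves between glia, endothelium and neurons through the monocarboxylate transporters, and many of these genes are known targets of hypoxia-inducible factor.

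In hyperoxia-exposed mice, mRNA levels were lower than in air for 8 of 14 enzyme genes from hexokinase to pyruvate kinase, for the mitochondrial pyruvate carrier subunit Mpc1 and for the kinase Pdk2, while the transporters Slc2a3, Slc16a1 and Slc16a7 and the kinases Pdk1 and Pdk4 were increased. All 34 genes had enough reads to be tested, and 19 passed an adjusted p of 0.05 in limma's test on log2 normalized counts, which was fitted and adjusted over all 17778 tested genes. Of these, 8 were higher in hyperoxia (Slc2a3, Pfkfb4, Pgk1, Slc16a1, Slc16a7, Pdha1, Pdk1 and Pdk4) and 11 were lower (Hk1, Gpi1, Pfkl, Aldoa, Gapdh, Pgam1, Eno2, Pkm, Ldhb, Mpc1 and Pdk2). The 19 genes are 55.9% of the 34, beside 30.5% of all tested genes called in either direction. In the higher direction the share was 23.5% beside 14.9% of all genes, and in the lower direction 32.4% beside 15.6%. The median log2 fold change (hyperoxia minus air) was −0.08 over the 34 genes and −0.01 over all tested genes, and the median size of the change was 0.30 and 0.25. Under quantile normalization the split was 8 higher and 7 lower. A correction for transcript length and GC content lost the calls of Slc2a3, Slc16a7 and Ldhb and added those of Ldha, Slc16a3 and Dld. Leaving out 1 library at a time gave 3 to 10 higher and 5 to 15 lower genes, with the fewest higher without air library 2, the fewest lower without air library 1, and the most of both without hyperoxia library 2.

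**Figure D1:**
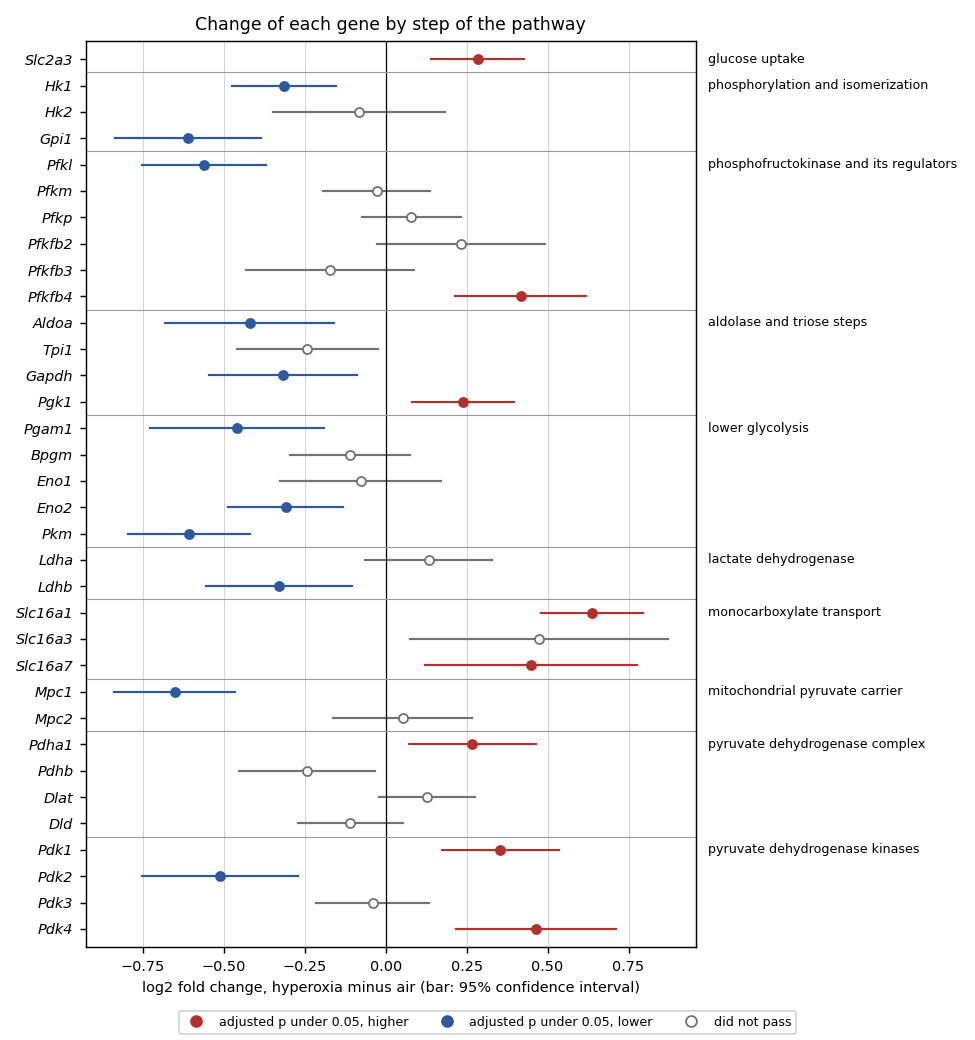
Log2 fold change of each of the 34 genes (x axis, hyperoxia minus air) in pathway order (y axis), as a point with its 95% confidence interval from limma on 3 air and 3 hyperoxia libraries. Filled red points passed an adjusted p of 0.05 as higher (8 genes), filled blue points as lower (11 genes), and open points did not pass (15 genes). From hexokinase to pyruvate kinase 8 of the 14 enzyme genes are blue and 1 (Pgk1) is red, and further down the red points include Slc16a1, Slc16a7, Pdk1 and Pdk4.

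The libraries held 30384052 to 38746972 reads on genes, with a median of 449 to 576 reads per tested gene. Among the hyperoxia libraries, library 2 stood apart on the second principal component (38.7, against −22.6 to −5.09 for the other 2), and library 3 held 7454 normalized counts of the choroid plexus transcript Ttr against 167 to 887 elsewhere. Of the 19 called genes, 12 had hyperoxia library 2 as the hyperoxia library nearest to air, 9 of them among the lower genes and 3 among the higher, and this library was nearest for 52.1% of all called genes.

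Some marker genes of cell types differed between the groups as well, beside 30.5% of all tested genes called in either direction. In bulk tissue, fewer cells of a type and less RNA per cell cannot be told apart. Of 6 oligodendrocyte markers 5 were lower in hyperoxia, with a summed level of 211426 to 321844 normalized counts in air and 144727 to 177382 in hyperoxia. Of 6 neuronal markers 3 were lower and 1 higher (177190 to 186305 in air, 158760 to 167654 in hyperoxia), and of 6 markers of dentate and pyramidal neurons 3 were lower (42843 to 46652, and 26267 to 42405). Of 6 endothelial markers 3 were higher and 1 lower (6572 to 7023, and 7604 to 8702), and of 4 oligodendrocyte precursor markers 2 were higher (16873 to 19060, and 19559 to 21449). Of 5 tested thalamic markers 3 were higher (3026 to 3347 over 6 listed genes, and 4488 to 6187), among them Slc17a6 at 630.0, 555 and 593 normalized counts in air and 2037, 2186 and 1675 in hyperoxia. The thalamic marker Prkcd had the opposite sign and did not pass (log2 fold change −0.21, limma adjusted p = 0.371), and Lef1 did not pass either (0.31, limma adjusted p = 0.14). Astrocytes had 2 of 6 markers higher (67082 to 70028, and 68143 to 75381), microglia 1 of 6 (9740 to 9766, and 10014 to 11190), choroid plexus 1 of 6 (551 to 1407, and 487 to 8154), and erythroid cells 1 of 6 higher and 1 lower (1787 to 2903, and 2566 to 4079). For astrocytes, microglia, choroid plexus and erythroid cells the share of called markers was near or below that of all tested genes. No listed marker was at 0 in any library, so those of hippocampal neurons were present in all 6. The part of any of these cell types in the changes below was not tested.

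To compare levels between genes, reads were divided by exon length and by the library's reads on genes, in the usual RPKM scale. In air the most abundant transcripts were Aldoa (402 RPKM), Gapdh (299.8), Ldhb (207), Pkm (169.8) and Gpi1 (143), and the least abundant were Slc16a3 (0.406), Hk2 (1.52) and Pdk4 (1.53). These 5 most abundant transcripts were all among the lower genes, and the higher genes had levels from 1.53 (Pdk4) to 37.2 RPKM (Pdha1) in air. Over the whole table, the 10 most abundant genes of each library held 10.6, 10.9 and 10.5% of reads in air. In hyperoxia libraries 1, 2 and 3 they held 8.21, 10.4 and 7.74%. The part of this shift among abundant transcripts in the lower levels here was not tested. Over the 14 enzyme genes from hexokinase to pyruvate kinase, the summed level was 1556 to 1666 RPKM in the air libraries and 1255 to 1523 RPKM in the hyperoxia libraries, without overlap. This scale is not that of the normalized counts used in the tests. A small change can differ in sign between them, as for Pfkm (86.0 RPKM in air and 89.9 in hyperoxia, log2 fold change −0.03 in the test). Of these 14 genes 8 were lower, 1 was higher and 5 did not pass, beside 15.6% lower and 14.9% higher of all tested genes. Their median log2 fold change was −0.31.

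**Figure D2:**
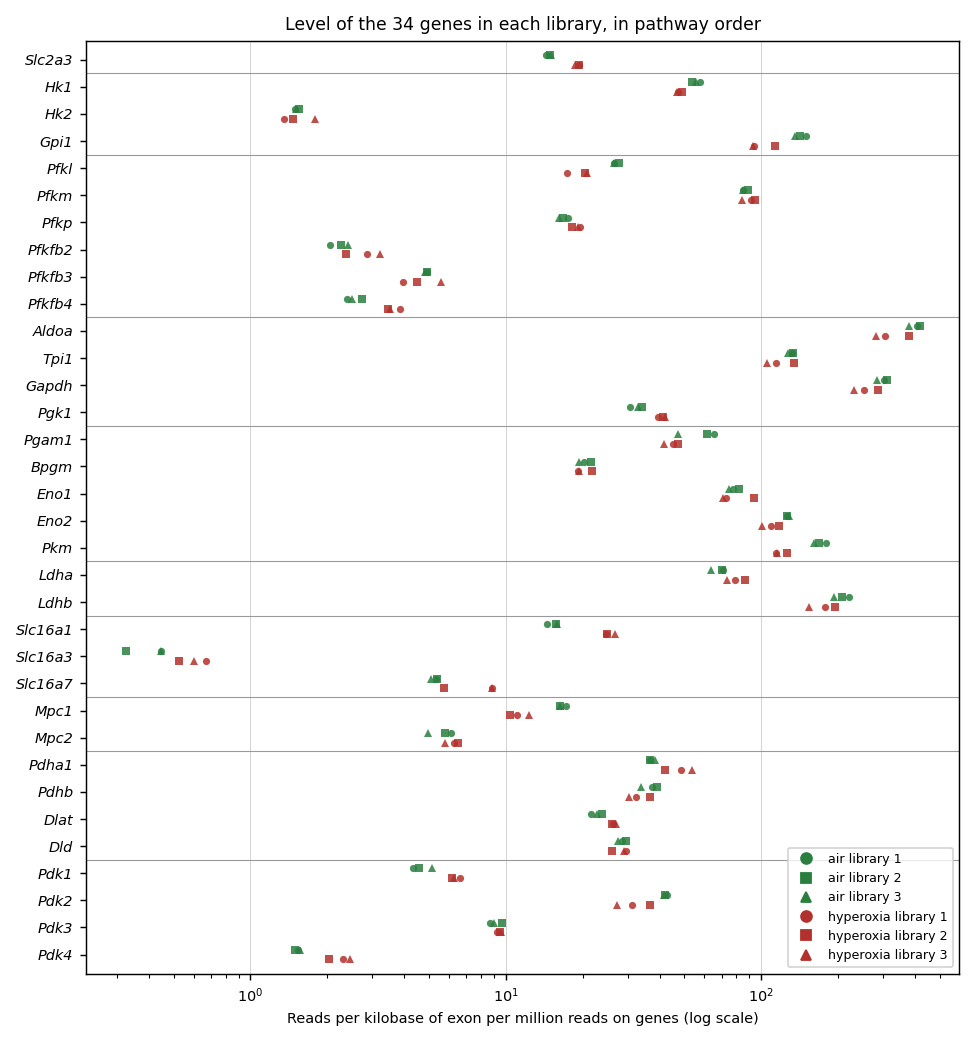
Level of each of the 34 genes in each of the 6 libraries, in RPKM on a log x axis, with the genes in pathway order on the y axis. Air libraries are green and hyperoxia libraries red, with a symbol for each library number. The levels run from under 1 RPKM (Slc16a3) to 402 RPKM for the air mean of Aldoa, and the red points lie left of the green ones at Gpi1, Pfkl, Pkm and Mpc1 and right of them at Slc16a1.

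A core of 7 genes passed in the main test and under all 16 alternative ways of processing the table, beside 13.1% of all tested genes: Gpi1, Pfkl, Pkm, Mpc1 and Pdk2 as lower and Pfkfb4 and Slc16a1 as higher. In the GENCODE annotation of GRCm38 they are Gpi1 (ENSMUSG00000036427.5, chr7:34201330-34230336, minus strand), Pfkl (ENSMUSG00000020277.10, chr10:77986947-78010083, minus strand), Pkm (ENSMUSG00000032294.17, chr9:59656368-59679375, plus strand), Mpc1 (ENSMUSG00000023861.17, chr17:8282904-8297661, plus strand), Pdk2 (ENSMUSG00000038967.13, chr11:95026258-95041354, minus strand), Pfkfb4 (ENSMUSG00000025648.17, chr9:108991778-109032228, plus strand) and Slc16a1 (ENSMUSG00000032902.1, chr3:104638668-104658462, plus strand). Their promoters are shown because these genes moved under every processing and hypoxia-inducible factor is known to act on genes of this pathway. The 250 bases before the transcription start come from RefSeq on GRCm38.p6, the first listed start of each gene, 5′ to 3′ on the gene's strand. Capitals mark the factor's core letters ACGTG or GCGTG on either strand (CACGT or CACGC on the opposite strand), which overlap each other in the E-box CACGTG.
Gpi1: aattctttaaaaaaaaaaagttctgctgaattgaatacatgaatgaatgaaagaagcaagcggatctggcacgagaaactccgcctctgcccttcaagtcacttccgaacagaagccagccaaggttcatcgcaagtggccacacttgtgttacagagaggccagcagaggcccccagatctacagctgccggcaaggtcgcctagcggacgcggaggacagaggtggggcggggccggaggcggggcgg
Pfkl: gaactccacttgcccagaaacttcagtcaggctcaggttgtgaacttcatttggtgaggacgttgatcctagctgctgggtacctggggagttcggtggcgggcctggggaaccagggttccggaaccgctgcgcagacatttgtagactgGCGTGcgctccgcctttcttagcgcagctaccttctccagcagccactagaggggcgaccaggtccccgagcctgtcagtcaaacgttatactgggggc
Pkm: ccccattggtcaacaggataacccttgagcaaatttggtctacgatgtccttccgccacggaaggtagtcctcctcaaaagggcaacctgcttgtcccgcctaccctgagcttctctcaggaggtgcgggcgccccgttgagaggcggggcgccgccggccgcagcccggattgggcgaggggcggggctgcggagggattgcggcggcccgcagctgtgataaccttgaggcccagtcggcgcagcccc
Mpc1: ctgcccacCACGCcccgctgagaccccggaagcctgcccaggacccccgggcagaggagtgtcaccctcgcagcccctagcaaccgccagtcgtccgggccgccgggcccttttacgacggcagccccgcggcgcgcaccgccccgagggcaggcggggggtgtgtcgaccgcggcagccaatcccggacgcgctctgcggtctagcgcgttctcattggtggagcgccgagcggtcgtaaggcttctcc
Pdk2: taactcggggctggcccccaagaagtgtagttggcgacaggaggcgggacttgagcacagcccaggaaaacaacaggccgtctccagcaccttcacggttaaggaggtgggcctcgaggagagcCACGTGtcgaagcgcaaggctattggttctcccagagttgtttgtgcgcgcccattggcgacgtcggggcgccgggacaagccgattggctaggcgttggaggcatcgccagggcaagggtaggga
Pfkfb4: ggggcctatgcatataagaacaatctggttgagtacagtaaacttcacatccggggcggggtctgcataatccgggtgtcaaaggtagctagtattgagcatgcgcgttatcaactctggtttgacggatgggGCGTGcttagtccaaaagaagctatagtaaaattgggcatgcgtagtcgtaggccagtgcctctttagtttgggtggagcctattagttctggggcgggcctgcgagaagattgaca
Slc16a1: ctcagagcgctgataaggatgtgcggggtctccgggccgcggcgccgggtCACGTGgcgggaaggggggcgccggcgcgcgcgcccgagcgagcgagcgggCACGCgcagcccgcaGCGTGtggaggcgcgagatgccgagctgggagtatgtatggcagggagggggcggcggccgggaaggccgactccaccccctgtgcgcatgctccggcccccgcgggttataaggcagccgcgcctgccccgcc
These windows lie at chr7:34230337-34230586 on the minus strand (Gpi1), chr10:78009808-78010057 on the minus strand (Pfkl), chr9:59656326-59656575 on the plus strand (Pkm), chr17:8283537-8283786 on the plus strand (Mpc1), chr11:95041372-95041621 on the minus strand (Pdk2), chr9:108991652-108991901 on the plus strand (Pfkfb4) and chr3:104638414-104638663 on the plus strand (Slc16a1).

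The core letters occurred 4 times in the Slc16a1 window, 2 times in that of Pdk2 and 1 time each in those of Pfkl, Mpc1 and Pfkfb4, and they were not in the windows shown for Gpi1 and Pkm. Of the 34 genes 32 had RefSeq windows, 48 in all, and 35 of these windows (72.9%) held the core letters, beside 38.6% of 32851 windows of the same length over all genes. Windows of the same gene can overlap, as in Eno1, Aldoa and Pfkm, so the same letters can be counted more than 1 time. By gene, 6 of 6 higher, 9 of 11 lower and 11 of 15 genes that did not pass had a match in at least 1 window, so matches occurred in genes of both directions. The share by gene over all genes was not computed. The E-box was in 6 of the 48 windows (12.5%), beside 6.02% of all windows. The core letters and the E-box all hold the pair CG, and the windows over all genes were not matched for GC content. The part of base composition in these shares was not tested. A match describes letters and is no evidence of binding.

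Glucose uptake was represented by Slc2a3, which encodes the neuronal glucose transporter GLUT3 and was increased in hyperoxia-exposed mice. Slc2a3 had 3813, 3878 and 3915 normalized counts in the air libraries and 4711, 4837 and 4583 in the hyperoxia libraries. Every hyperoxia library was above every air library. The gene was 21.7% higher (log2 fold change 0.28 ± 0.06 SE, limma adjusted p = 0.00938). Its call held in 15 of 16 alternatives (adjusted p 0.000568 to 0.225) and was lost after a correction for transcript length and GC content (log2 fold change 0.12, adjusted p = 0.225).

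At the entry of glycolysis, Hk1 and Gpi1 fell and Hk2 did not pass. Hk1 encodes the main hexokinase of brain, which traps glucose as glucose 6-phosphate, and had 17977, 16421 and 17022 normalized counts in air against 13497, 14349 and 13505 in hyperoxia. The groups did not overlap, and Hk1 fell by 19.6% (log2 fold change −0.31 ± 0.07 SE, limma adjusted p = 0.0102). Gpi1, the isomerase that makes fructose 6-phosphate, had 35435, 33067 and 31506 normalized counts in air against 20278, 25178 and 20345 in hyperoxia. All hyperoxia libraries were below all air libraries, with library 2 the highest of the 3. Gpi1 fell by 34.5%, among the largest changes of the pathway (log2 fold change −0.61 ± 0.10 SE, limma adjusted p = 0.00257). Hk2, the insulin-responsive hexokinase, was far scarcer and overlapped between groups (328 ± 4.29 and 312 ± 45.1 normalized counts, mean ± SD, n = 3 each, log2 fold change −0.08 ± 0.12 SE, limma adjusted p = 0.624, 95% interval −0.35 to 0.18). The call of Hk1 was lost without air library 1 (adjusted p = 0.0559, range over the alternatives 0.000589 to 0.0559), and 11.5% of the exon length of Gpi1 is overlapped on the opposite strand by Gm26762, which had a mean of 63.7 normalized counts against 27635 for Gpi1.

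Phosphofructokinase, which commits the sugar to glycolysis, has 3 subunits, and of these Pfkl alone passed. The liver-type subunit Pfkl had 6490, 6635 and 6362 normalized counts in air and 3886, 4683 and 4698 in hyperoxia. No library of either group reached the other group's range, and Pfkl fell by 32.2% (log2 fold change −0.56 ± 0.09 SE, limma adjusted p = 0.00185). The muscle-type subunit Pfkm was the most abundant of this step per length (86 RPKM in air) and had 10344, 10636 and 10163 normalized counts in air and 10212, 10889 and 9493 in hyperoxia. The air range of Pfkm lay inside the hyperoxia range, and the interval of its change held 0 (log2 fold change −0.03 ± 0.07 SE, limma adjusted p = 0.799, 95% interval −0.19 to 0.14). The platelet-type subunit Pfkp also overlapped (8158 ± 401 and 8617 ± 222 normalized counts, log2 fold change 0.08 ± 0.07 SE, limma adjusted p = 0.405, 95% interval −0.07 to 0.23). The differences between the changes of the subunits were not tested. The directions of Pfkm and Pfkp turned under the length and GC correction (to 0.07 and −0.17).

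The Pfkfb genes encode bifunctional enzymes that make and remove fructose 2,6-bisphosphate, the activator of phosphofructokinase, and among them Pfkfb4 rose. Pfkfb4 had 425, 480.3 and 438 normalized counts in air and 633, 582 and 578 in hyperoxia. Its lowest hyperoxia library was above its highest air library, and the gene was 33.5% higher (log2 fold change 0.42 ± 0.09 SE, limma adjusted p = 0.00829). Pfkfb2 (586 ± 40.5 in air and 692 ± 101 in hyperoxia, log2 fold change 0.23 ± 0.12 SE, limma adjusted p = 0.157) and Pfkfb3 (1336 ± 19 and 1198 ± 211, log2 fold change −0.17 ± 0.12 SE, limma adjusted p = 0.287) did not pass. Both varied more among hyperoxia libraries than among air libraries. Pfkfb2 passed as higher without hyperoxia library 2 (adjusted p = 0.0121, range 0.0121 to 0.405), and Pfkfb3 as lower without hyperoxia library 3 (adjusted p = 0.0296, range 0.0296 to 0.749).

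In the aldolase and triose steps, Aldoa and Gapdh fell, Pgk1 rose and Tpi1 did not pass. Aldoa, the aldolase that splits fructose 1,6-bisphosphate, had 43121, 43744 and 39824 normalized counts in air and 29805, 37909 and 27758 in hyperoxia. Hyperoxia library 2 lay close under the air range and the other hyperoxia libraries well below it. Aldoa fell by 25.3% (log2 fold change −0.42 ± 0.12 SE, limma adjusted p = 0.0231). Gapdh, the dehydrogenase often taken as a reference transcript, had 45810, 46365 and 42104 normalized counts in air and 35247, 40872 and 32143 in hyperoxia. The same order was seen, with library 2 nearest to air and no overlap. Gapdh fell by 19.7% (log2 fold change −0.32 ± 0.10 SE, limma adjusted p = 0.0404). Pgk1, the kinase that makes the first ATP of the payoff phase, went the other way with 2503, 2756 and 2643 normalized counts in air and 2967, 3173 and 3179 in hyperoxia. All hyperoxia libraries were above the air libraries, and Pgk1 was 18% higher (log2 fold change 0.24 ± 0.07 SE, limma adjusted p = 0.0299), the only higher gene among the 14 enzymes from hexokinase to pyruvate kinase. Tpi1, the triose phosphate isomerase, had 13019 ± 374 normalized counts in air and 11076 ± 1498 in hyperoxia, with library 2 inside the air range (log2 fold change −0.24 ± 0.10 SE, limma adjusted p = 0.0856).

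The calls of this step were among the less stable. Without air library 1, 2 or 3 the adjusted p of Aldoa was 0.0878, 0.0941 and 0.0511, that of Gapdh 0.133, 0.148 and 0.0725, and that of Pgk1 0.13, 0.0639 and 0.0905. Without hyperoxia library 1 the values were 0.0883, 0.12 and 0.0515, and without hyperoxia library 3 Gapdh (0.0936) and Pgk1 (0.0607) did not pass. Without hyperoxia library 2, Tpi1 passed as lower (log2 fold change −0.35, adjusted p = 0.0012, range 0.0012 to 0.245). Quantile normalization brought Aldoa to −0.20 and Gapdh to −0.07, and neither passed. Over all alternatives the adjusted p ran from 0.000202 to 0.146 for Aldoa, 0.00135 to 0.549 for Gapdh and 0.00222 to 0.13 for Pgk1. Gapdh has 101 near-identical copies in the annotation, whose summed level was 2.58% of its own.

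In lower glycolysis, Pgam1, Eno2 and Pkm fell, and Bpgm and Eno1 did not pass. Pkm, the pyruvate kinase that ends the chain and makes ATP, had 32858, 30372 and 28810 normalized counts in air and 19243, 21673 and 19508 in hyperoxia. The gap between the groups was wider than the range within either. Pkm fell by 34.3% (log2 fold change −0.61 ± 0.08 SE, limma adjusted p = 0.0013). Its near-identical copies summed to 2.04% of its level (519 normalized counts), and most of this came from a single copy with a mean of 456. RP23-320D23.6, which shares 15.3% of the exon length of Pkm on the same strand, had the same mean of 456 against 25410 for Pkm. That copy and RP23-320D23.6 therefore appear to be the same gene. How reads in shared exons were counted is not stated. Pgam1, the phosphoglycerate mutase, had 4738, 4370 and 3373 normalized counts in air and 3000, 3209 and 2786 in hyperoxia. Air library 3 lay near the hyperoxia range without entering it, and Pgam1 fell by 27.3% (log2 fold change −0.46 ± 0.12 SE, limma adjusted p = 0.0178).

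Of the enolases, Eno2 fell and Eno1 did not pass. Eno2, the neuron-specific enolase, had 21597, 21362 and 21693 normalized counts in air and 17266, 18960 and 16094 in hyperoxia. All hyperoxia libraries were below the narrow air range, and Eno2 fell by 19.3% (log2 fold change −0.31 ± 0.08 SE, limma adjusted p = 0.017). Eno1, the enolase of most other cells, overlapped, with hyperoxia library 2 the highest of the 6 libraries (15146 ± 682 and 14476 ± 2439 normalized counts, log2 fold change −0.08 ± 0.11 SE, limma adjusted p = 0.624). The ratio of Eno2 to Eno1 within a library, which does not depend on its scaling, was 1.422, 1.351 and 1.502 in air and 1.305, 1.097 and 1.247 in hyperoxia. All hyperoxia ratios were below the air ratios (difference −0.23 in log2, exact two-sided permutation p = 0.1, adjusted over 3 pairs 0.15), and 0.1 is the smallest p that 3 against 3 allows. Bpgm, which makes 2,3-bisphosphoglycerate, had 2635 ± 144 and 2445 ± 208 normalized counts and overlapped (log2 fold change −0.11 ± 0.08 SE, limma adjusted p = 0.337). Without hyperoxia library 2, Eno1 (log2 fold change −0.21, adjusted p = 0.0175, range 0.0175 to 0.995) and Bpgm (−0.18, adjusted p = 0.0468, range 0.0468 to 0.644) passed as lower.

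The call of Pgam1 was lost without air library 1 (adjusted p = 0.084), air library 2 (0.0806) or hyperoxia library 1 (0.0564), over a range of 0.00178 to 0.084. That of Eno2 was lost when air library 1, 2 or 3 (0.0667, 0.0674 and 0.0678) or hyperoxia library 1 (0.062) was removed and under quantile normalization (0.0777, log2 fold change −0.20), over a range of 0.000759 to 0.0777.

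Lactate dehydrogenase is a tetramer of A subunits, which favour lactate formation, and B subunits, which favour its oxidation to pyruvate. Ldhb fell, with 12656, 11700 and 10888 normalized counts in air and 9427, 10520 and 8183 in hyperoxia. Hyperoxia library 2 lay just under the lowest air library, and library 3 was the lowest of all. Ldhb fell by 20.4% (log2 fold change −0.33 ± 0.10 SE, limma adjusted p = 0.0339). Ldha did not pass, at 8160 ± 514 normalized counts in air and 8959 ± 857 in hyperoxia (log2 fold change 0.13 ± 0.09 SE, limma adjusted p = 0.276, 95% interval −0.06 to 0.33). Within libraries, the ratio of Ldha to Ldhb counts was 0.675, 0.715 and 0.696 in air and 0.933, 0.940 and 1.001 in hyperoxia. Every hyperoxia library had the higher ratio (difference 0.46 in log2, exact two-sided permutation p = 0.1, the smallest possible, adjusted over 3 pairs 0.15). The corresponding ratio of Hk2 to Hk1 overlapped between groups (difference 0.23 in log2, exact two-sided permutation p = 0.2, adjusted 0.2).

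Ldhb kept its call in 8 of 16 alternatives (adjusted p 0.0021 to 0.141), with 0.141, 0.104 and 0.0522 when air library 1, 2 or 3 was left out, 0.0865 and 0.0742 when hyperoxia library 1 or 3 was, and 0.0774 after the length and GC correction (log2 fold change −0.17). The same correction made Ldha pass as higher (0.24, adjusted p = 0.0151, range 0.0151 to 0.606).

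The monocarboxylate transporters, which move lactate, pyruvate and ketone bodies across the plasma membrane, were increased or did not pass, and none was lower. Slc16a1 encodes MCT1, the transporter of endothelium and oligodendroglia, and had 2342, 2511 and 2519 normalized counts in air and 3660, 3809 and 3998 in hyperoxia. The hyperoxia libraries were far above the air libraries and close to each other. Slc16a1 was 55.5% higher, the largest increase among the called genes (log2 fold change 0.64 ± 0.07 SE, limma adjusted p = 0.000543). Slc16a7 encodes MCT2, the neuronal transporter, and had 2302, 2294 and 2161 normalized counts in air and 3525, 2324 and 3544 in hyperoxia. Hyperoxia libraries 1 and 3 were well above air, whereas library 2 exceeded the highest air library only slightly. Slc16a7 was 36.5% higher on average (log2 fold change 0.45 ± 0.15 SE, limma adjusted p = 0.0423). Slc16a3, which encodes the low-affinity transporter MCT4, had only 78 ± 13.8 normalized counts in air and 108 ± 11.6 in hyperoxia and did not pass, although its libraries did not overlap (log2 fold change 0.47 ± 0.18 SE, limma adjusted p = 0.0697, 95% interval 0.08 to 0.87). On the log2(value + 1) scale the change of so low a gene is slightly understated.

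Slc16a7 passed in 9 of 16 alternatives (adjusted p 3.97e-05 to 0.955). Without air library 1, 2 or 3 its adjusted p was 0.112, 0.107 and 0.122, without hyperoxia library 1 or 3 it was 0.152 and 0.0983, and the length and GC correction reduced its log2 fold change to 0.01 (adjusted p = 0.955). Slc16a3 passed without hyperoxia library 2 (adjusted p = 0.0355, range 0.0355 to 0.239) and after that correction (0.0438). In the same libraries 3 of 6 endothelial markers were higher and 1 lower, and 5 of 6 oligodendrocyte markers were lower. Of 4 oligodendrocyte precursor markers 2 were higher. The part of these cell types in the level of Slc16a1 was not tested.

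The mitochondrial pyruvate carrier is a heterodimer that brings pyruvate across the inner membrane, and only its Mpc1 subunit passed. Mpc1 had 1312, 1222 and 1215 normalized counts in air and 776, 747 and 865 in hyperoxia. Every hyperoxia library lay far under the air range. Mpc1 fell by 36.3%, the largest decrease of the 34 genes (log2 fold change −0.65 ± 0.08 SE, limma adjusted p = 0.000998). Mpc2 overlapped, with 1490 ± 161 and 1542 ± 102 normalized counts (log2 fold change 0.05 ± 0.10 SE, limma adjusted p = 0.704, 95% interval −0.16 to 0.27). The difference between both changes was not tested. The annotation holds a near-identical copy, Mpc1-ps, with which reads could be shared, so the level of Mpc1 is uncertain. Mpc1-ps had 370.1, 405 and 358 normalized counts in air and 345, 402 and 296 in hyperoxia, a mean equal to 35.5% of that of Mpc1, and did not pass (log2 fold change −0.13 ± 0.12 SE, limma adjusted p = 0.456). A further 23.1% of the exon length of Mpc1 is overlapped on the opposite strand by 4930506C21Rik, which had a mean of 22.9 normalized counts.

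**Figure D3:**
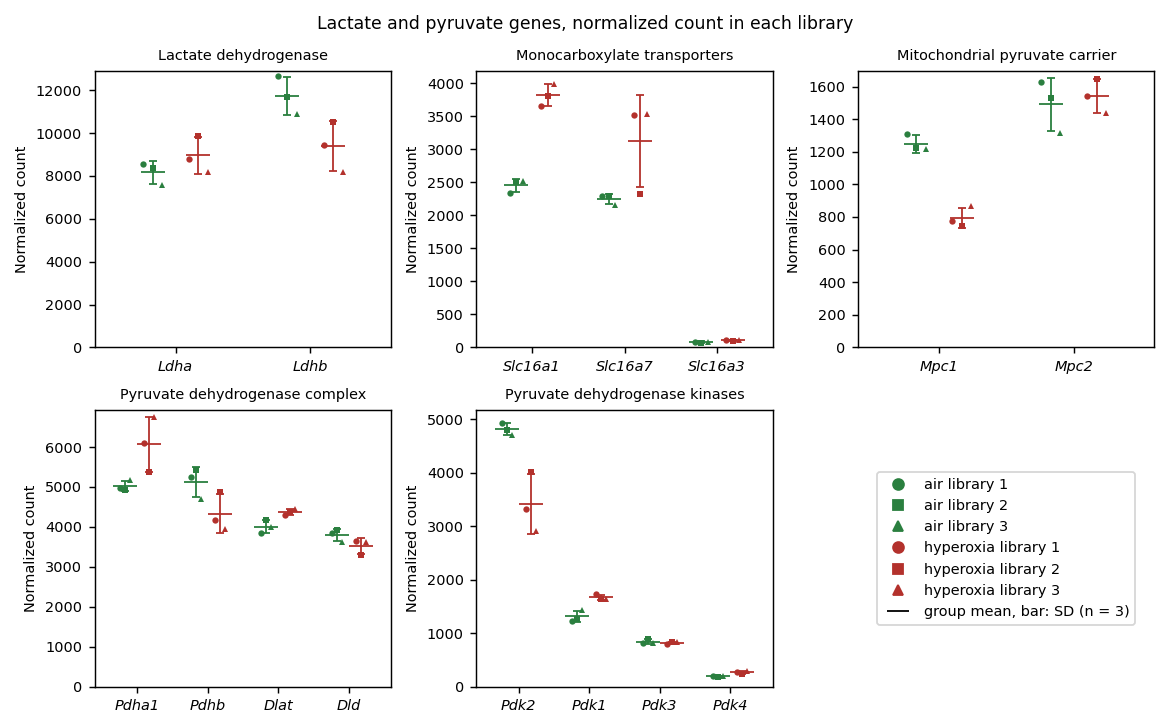
Normalized count (y axis, from 0) of the lactate and pyruvate genes in each library, with 1 panel per step. Green symbols are air libraries and red symbols hyperoxia libraries, and the lines with bars show the group mean ± SD (n = 3). Slc16a1 stands at 2458 ± 100.1 in air and 3822 ± 169.5 in hyperoxia, Mpc1 at 1250 ± 54.1 and 796 ± 61.3, and the red square of Slc16a7 (hyperoxia library 2) lies beside the green symbols.

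The pyruvate dehydrogenase complex joins pyruvate to coenzyme A, and of its genes only Pdha1 passed. Pdha1, the catalytic E1 alpha subunit that the kinases phosphorylate, had 4982, 4917 and 5168 normalized counts in air and 6091, 5374 and 6745 in hyperoxia. Hyperoxia library 2 was nearest to the air range and library 3 farthest from it, without overlap. Pdha1 was 20.4% higher (log2 fold change 0.27 ± 0.09 SE, limma adjusted p = 0.0441). Its partner Pdhb, the E1 beta subunit, had the opposite sign and did not pass, and the difference between both was not tested (5124 ± 385 and 4336 ± 476 normalized counts, log2 fold change −0.24 ± 0.09 SE, limma adjusted p = 0.076). Dlat, the acetyltransferase core, was above air in every hyperoxia library but did not pass (4007 ± 162 and 4378 ± 78.7, log2 fold change 0.13 ± 0.07 SE, limma adjusted p = 0.167). Dld, the dehydrogenase that this complex shares with others, overlapped (3797 ± 150.1 and 3523 ± 195, log2 fold change −0.11 ± 0.07 SE, limma adjusted p = 0.277). Dlat and Slc16a3 were the 2 genes whose groups did not overlap and that were not called, which with the 19 called genes makes 21 of 34, beside 46.1% of all tested genes.

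The adjusted p of Pdha1 was 0.134, 0.147 and 0.0935 with 1 of the air libraries (1, 2 and 3) removed and 0.119 and 0.105 with hyperoxia library 1 or 3 removed, over a range of 0.00135 to 0.147. Its exons are overlapped over 16.1% of their length by Map3k15 on the opposite strand (mean of 63.4 normalized counts against 5546). Pdhb passed as lower without hyperoxia library 2 (log2 fold change −0.33, adjusted p = 0.00405, range 0.00405 to 0.247), and Dld as lower after the length and GC correction (−0.17, adjusted p = 0.0426, range 0.0426 to 0.536).

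The pyruvate dehydrogenase kinases, which inactivate the complex, moved in both directions. Pdk2, the most abundant of them per length in air (42.1 RPKM), had 4934, 4796 and 4711 normalized counts in air and 3311, 4008 and 2904 in hyperoxia. The air libraries were tightly grouped, and all hyperoxia libraries were below them with library 3 lowest. Pdk2 fell by 29.8% (log2 fold change −0.51 ± 0.11 SE, limma adjusted p = 0.00719). Pdk1, a known target of hypoxia-inducible factor, had 1229, 1274 and 1436 normalized counts in air and 1730, 1647 and 1646 in hyperoxia. No air library reached the lowest hyperoxia library. Pdk1 was 27.7% higher (log2 fold change 0.35 ± 0.08 SE, limma adjusted p = 0.0102). Pdk4, the kinase known for its induction by fasting and fatty acids, had 197, 188 and 197 normalized counts in air and 271, 245 and 291 in hyperoxia. The groups were separate at this low level, and Pdk4 was 38% higher (log2 fold change 0.46 ± 0.11 SE, limma adjusted p = 0.0119). Pdk3 showed no difference larger than its spread (844 ± 41.7 and 821 ± 21.9, log2 fold change −0.04 ± 0.08 SE, limma adjusted p = 0.728, 95% interval −0.21 to 0.14). Calls were lost for Pdk1 without air library 1 (adjusted p = 0.0556) or 2 (0.0542), over a range of 0.00128 to 0.0556, and for Pdk4 without air library 2 (0.0554, range 0.00294 to 0.0554).

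Beside the 34 genes, 7 lists of neighbouring pathway genes were read from the same fit. Of 92 listed genes 88 were tested, and 34 passed (38.6%, beside 30.5% of all genes), 21 as higher and 13 as lower. Of 20 further isoforms and partners 3 were higher and 6 lower. The higher ones included Pdpr, the regulatory subunit of pyruvate dehydrogenase phosphatase (log2 fold change 0.999 ± 0.17 SE, limma adjusted p = 0.0027), and Pdp2, a catalytic subunit of that phosphatase (log2 fold change 0.37 ± 0.11, adjusted p = 0.0249 in limma). The lower ones included the muscle-type mutase Pgam2 (log2 fold change −0.88 ± 0.13 SE, limma adjusted p = 0.00162). Of 10 genes of the malate-aspartate and glycerol phosphate shuttles, which pass cytosolic NADH to the mitochondrion, 3 were higher, among them Mdh1 (log2 fold change 0.34 ± 0.08, adjusted p = 0.0136 in limma) and Slc25a11 (log2 fold change 0.32 ± 0.10, adjusted p = 0.0382 in limma). The lower one was Gpd1, the cytosolic glycerol 3-phosphate dehydrogenase, at 3207, 3500 and 3405 normalized counts in air and 1444, 1722 and 1621 in hyperoxia (log2 fold change −1.08 ± 0.08 SE, limma adjusted p = 0.000218). Gpd1 fell by 52.7%, more than any of the 34 genes.

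The citric acid cycle had 2 of 16 genes higher (Suclg2, log2 fold change 0.46 ± 0.11, adjusted p = 0.0131, and Sdhd, log2 fold change 0.24 ± 0.08, adjusted p = 0.0395, in limma) and 2 lower (Idh3g, log2 fold change −0.32 ± 0.09, adjusted p = 0.0245, and Idh3b, log2 fold change −0.26 ± 0.08, adjusted p = 0.0318, in limma). Among 16 glycogen genes 6 were higher and 2 lower. The higher ones included Ppp1r3c, which targets a phosphatase to glycogen (log2 fold change 0.48 ± 0.09 SE, limma adjusted p = 0.00524), and the phosphorylase kinase subunit Phkb (log2 fold change 0.37 ± 0.09, adjusted p = 0.0115 in limma). Both lower ones were catalytic subunits of phosphorylase kinase, Phkg1 (log2 fold change −0.59 ± 0.09 SE, limma adjusted p = 0.00151) and Phkg2 (log2 fold change −0.25 ± 0.08, adjusted p = 0.0327 in limma). Of 8 pentose phosphate genes only H6pd was higher (log2 fold change 0.45 ± 0.11 SE, limma adjusted p = 0.0117). Of 6 tested genes of pyruvate carboxylation and gluconeogenesis, the malic enzyme Me1 was higher (log2 fold change 0.28 ± 0.09, adjusted p = 0.042 in limma) and Me3 lower (log2 fold change −0.39 ± 0.07, adjusted p = 0.00362 in limma). Of 12 transcription factors that act on glycolytic genes 5 were higher, with the largest values for Ppara (log2 fold change 0.99 ± 0.29, adjusted p = 0.028 in limma) and Esrrg (log2 fold change 0.56 ± 0.15, adjusted p = 0.0222 in limma), and Esrra was lower (log2 fold change −0.32 ± 0.08, adjusted p = 0.0144 in limma). Ppara was scarce, at 18.8, 27.5 and 29.8 normalized counts in air and 65.4, 35.1 and 56.0 in hyperoxia. Its call held in 11 of the 15 alternatives that gave it a value. Leaving out 1 library at a time gave 11 to 42 called genes over the 7 lists, the fewest without air library 1 and the most without hyperoxia library 2.

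**Figure D4:**
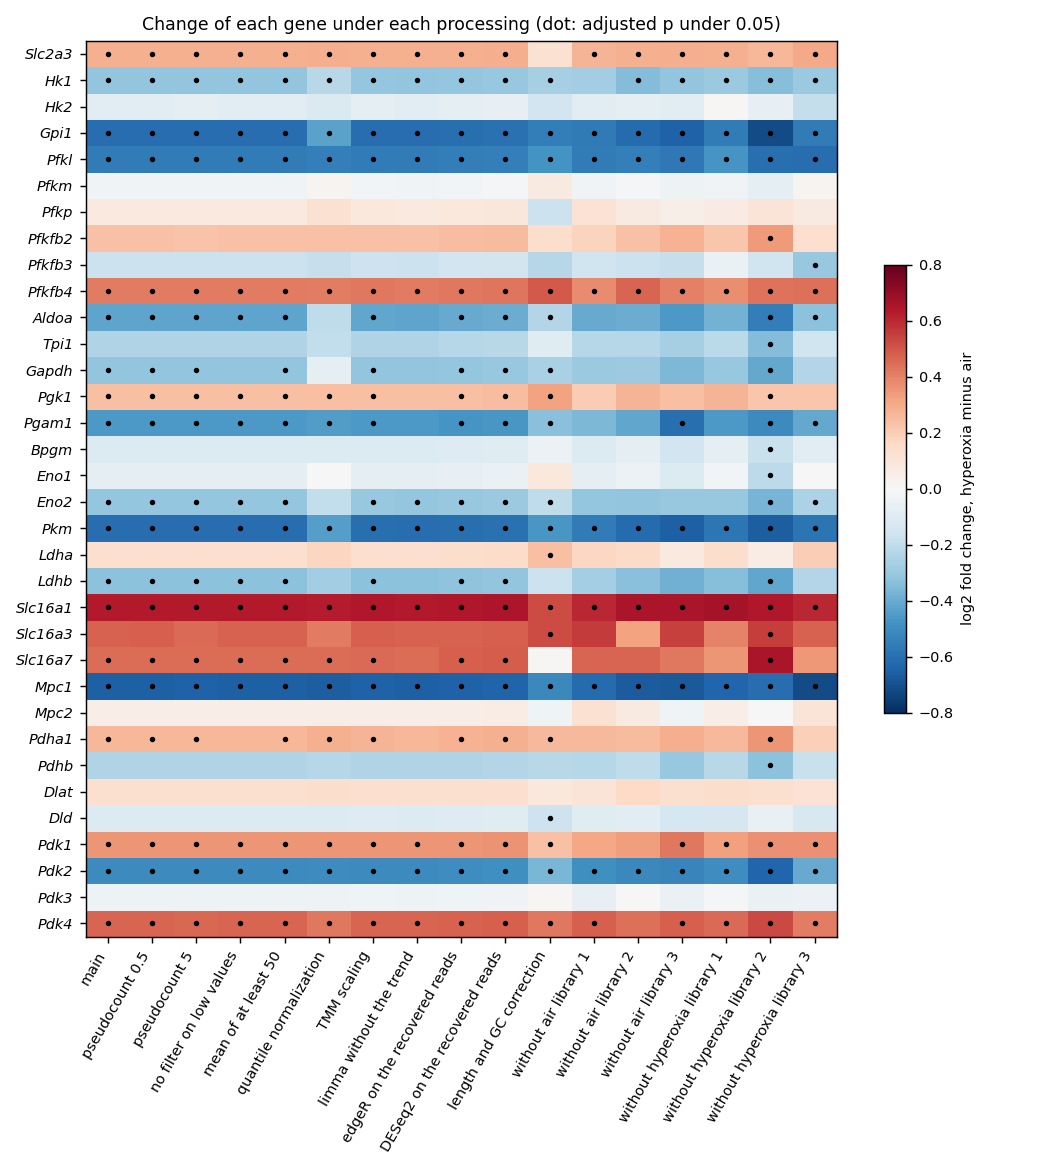
Log2 fold change of each of the 34 genes (rows) in the main test and 16 alternatives (columns), with red for higher and blue for lower in hyperoxia and a dot where the adjusted p was under 0.05. Dots run through the whole row for Gpi1, Pfkl, Pfkfb4, Pkm, Slc16a1, Mpc1 and Pdk2, are absent from 6 rows, and are densest in the column without hyperoxia library 2 (10 higher and 15 lower genes).

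Over all settings, none of the 19 called genes changed direction. In 12 of them the call was lost under at least 1 alternative, and 9 of the 15 other genes gained a call under at least 1. The 6 genes called under no setting were Hk2, Pfkm, Pfkp, Mpc2, Dlat and Pdk3. Limma without its mean-variance trend lost Aldoa, Gapdh, Pgk1, Pgam1, Ldhb, Slc16a7 and Pdha1 (adjusted p 0.0661 for Pgam1 to 0.115 for Slc16a7). With no filter on low levels Gapdh (0.051) and Pdha1 (0.0506) fell just outside the threshold, and quantile normalization lost Aldoa (0.146), Gapdh (0.549), Eno2 (0.0777) and Ldhb (0.0677).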

How the data were processed

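RNA of the left hippocampus was sequenced as paired-end reads on an Illumina NextSeq500 after strand-specific, poly(A)-based library preparation. FastQC, STAR 2.5.3a, HTSeq and DESeq2 are named in the submitters' processing notes. The sources used here do not give the genome build, the annotation or whether counting used strand. The deposited signal is the number of reads per gene after the authors had scaled each library by its own size factor, and is called a normalized count here. A second deposited table of the authors' own fold changes, standard errors and p-values was not used. Column numbers (1 to 3 per group) are not tied to animal numbers.

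Dividing each library's values by what 1 read was worth gave whole numbers for 100% of them (tolerance 0.01), so whole reads were recovered. The libraries held 30384052 to 38746972 reads, and replicates differed beyond sampling noise. Genes with a mean of at least 10 (17778 of 24935) were tested with limma 3.58.1 (lmFit, eBayes with trend, R 4.3.3) on log2(value + 1), which understates changes of low genes, as hyperoxia minus air with Benjamini-Hochberg adjustment over all of them at 0.05. The test was repeated with TMM scaling, with quantile normalization, without limma's trend, with a pseudocount of 0.5 or 5, with no minimum level or a minimum of 50, with edgeR 4.0.16 and DESeq2 1.42.0 on the recovered reads, with a correction for transcript length and GC content (mgcv 1.9.3) and without each library in turn. Isoform ratios were compared with an exact two-sided permutation test (scipy 1.17.1). RPKM used the summed exon length of the GENCODE annotation of GRCm38, which held 99.7% of the gene IDs. Near-identical copies were found with BLAST 2.17.0 (at least 95% identity over 300 bases), and promoters are RefSeq windows. Scripts were tested on simulated data.

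Every called gene, and the gene with the most reads per kilobase of each step, is given in every library, and other genes by mean ± SD. Per list of the 7 lists of other pathway genes at most 2 higher and 2 lower genes are named by size of change, and 1 such gene is not reported here. The genes, these lists and the 10 marker lists were chosen with earlier results of these data known.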

Additional observations from a re-analysis of the deposited data

How the results depend on the processing

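The counts of 8 higher and 11 lower genes, of 34 called genes in the neighbouring lists and of 5425 called genes over the whole table stayed within 1.5 times of these values under both other pseudocounts, no filter, a mean of at least 50, TMM scaling, edgeR and DESeq2 (5501 and 5611 genes over the table) and the length and GC correction. Without the trend limma called 5 higher, 7 lower and 18 neighbouring genes, and quantile normalization left 7 lower genes. Leaving out 1 library gave 3 to 10 higher, 5 to 15 lower, 11 to 42 neighbouring and 3048 to 7756 genes in all. With air library 1, 2 or 3 left out these were 4, 3 and 5 higher and 5, 6 and 7 lower; with hyperoxia library 1, 2 or 3 left out, 5, 10 and 5 higher and 6, 15 and 10 lower. A group then holds 2 libraries, and the cause of these shifts was not tested.

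Of all pairs of the 34 genes with an alternative, 467 kept their direction and their side of the threshold, 56 lost a call, 10 gained a call and 11 turned direction, each in a gene that was not called. Under the length and GC correction the log2 fold change became 0.073 for Pfkm, −0.17 for Pfkp, 0.082 for Eno1, −0.037 for Mpc2 and 0.0072 for Pdk3, and under quantile normalization 0.021 for Pfkm and 0.0015 for Eno1. With 1 library left out, Hk2 ran from −0.19 to 0.010 (above 0 without hyperoxia library 1), Pfkm from −0.076 to 0.023 (above 0 without hyperoxia library 3), Mpc2 from −0.036 to 0.12 (below 0 without air library 3) and Pdk3 from −0.065 to 0.000845 (above 0 without air library 2). For these the cause was not tested. The isoform ratios kept their direction under every pseudocount and with each library left out. No paired analysis was possible because the labels number the animals from 1 to 6 across both groups and the columns' numbers are not tied to them. With 3 libraries per group small changes can be missed, and for a gene that did not pass, any change within its interval remains possible.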
